A study of Drosophila melanogaster with 2 samples.

Results

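Genes of the actomyosin machinery were examined in a chromatin map of Drosophila melanogaster prepupae, namely Act5C, Act42A, chic, tsr, zip, sqh, Rho1, RhoGEF2, cher and Svil. They were chosen by name and are 10 of the 13945 protein-coding genes annotated on the chromosome arms, for their roles in the cell shape changes of imaginal discs. The choice was made with earlier results of these data known. Binding had been mapped by chromatin immunoprecipitation with sequencing (ChIP-seq) with an anti-GFP antibody. The animals were whole prepupae of both sexes, of unknown age, from a transgenic line that stably expressed the protein of locus CG6854 with GFP fused to its C terminus. The labels give the target as CTPsyn, the enzyme CTP synthase. RefSeq has CG6854 among the older names of Ctps and also of CG45071, so the locus name by itself does not settle which protein was tagged. The 2 libraries, biological replicates 2 and 3, form 1 group of 1 genotype, with no treatment named in the labels and no second condition. The promoter that drives the fusion is not given in the sources used here, and control libraries were not analysed here. Since whole animals were used, discs were not separated from other tissues, and binding in few cells cannot be told apart from weak binding in many. No expression was measured, so disc marker genes could not be checked.

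The actin cytoskeleton builds tension when bipolar filaments of nonmuscle myosin II pull actin filaments past each other. Profilin delivers actin monomers to growing filament ends, and cofilin severs old filaments and returns monomers. The small GTPase Rho1, switched on by exchange factors such as RhoGEF2, acts through a kinase that phosphorylates the myosin regulatory light chain and so starts contraction. In prepupae of Drosophila this machinery is known for the elongation and eversion of leg and wing discs.

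A summit is the point of highest signal in a peak that the authors called. Each was assigned to a gene when it lay inside the gene or within 500 bp of an annotated start site, the latter being called a promoter summit. The list used for counting held the 5703 summits that passed the authors' irreproducible discovery rate (IDR) threshold, which is based on reproducibility between replicates. It equalled the 5703 strongest summits of the pooled list. A place on it therefore does not show that a single summit was alike in both replicates. Signal is the score that the authors gave each peak, of unstated scale. It ran from 136.3 to 2488 in the IDR list with a median of 200.1, and rank 1 is the strongest. Of the 5703 IDR peaks, 3250 were exactly 430 bp wide, as were 18 of the 32 at members, so peak extents are not read as widths of binding. Distances are along the gene's strand from the nearest of its own start sites, negative upstream. Replicate values come from the list of each replicate alone, matched within 100 bp of the IDR summit. With 1 group, no test between groups was possible, and all values are descriptions.

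Sequence at member summits is shown here because GAGAG, the letters bound by GAGA factor, lay near promoter summits of Act5C, chic, sqh and cher among other members, and because CArG boxes, the site of serum response factor, lay near 4 member summits, of which 3 are printed. All runs are from build dm6 (RefSeq), 5′ to 3′ on the gene's strand, with no annotated UTR bases, and capitals mark motif matches on either strand. The first lines give the summit with bases on either side, or the UTR-free bases next to it. The sqh run lies just upstream of the third start site of sqh, next to its weaker summit, and the Svil run, at its strongest summit, holds no match to any motif searched.
Act5C, X:5901850-5901950: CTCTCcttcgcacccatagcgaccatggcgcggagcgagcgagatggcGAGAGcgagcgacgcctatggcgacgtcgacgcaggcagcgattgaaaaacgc
chic, 2L:5980102-5980202: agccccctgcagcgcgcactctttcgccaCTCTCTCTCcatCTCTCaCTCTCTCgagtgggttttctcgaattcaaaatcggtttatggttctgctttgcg
sqh, X:6224521-6224602: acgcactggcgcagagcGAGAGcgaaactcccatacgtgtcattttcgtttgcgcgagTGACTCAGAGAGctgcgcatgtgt
cher, 3R:17119083-17119183: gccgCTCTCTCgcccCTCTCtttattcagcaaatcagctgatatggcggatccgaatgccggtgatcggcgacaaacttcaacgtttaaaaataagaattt
Svil, 3L:2494243-2494343: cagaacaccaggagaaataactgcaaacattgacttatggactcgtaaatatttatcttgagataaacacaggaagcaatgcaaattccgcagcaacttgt
The remaining lines give each CArG box with 15 bases on either side.
Act5C CArG box, X:5901788-5901827: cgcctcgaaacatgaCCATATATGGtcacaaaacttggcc
sqh CArG box, X:6224345-6224384: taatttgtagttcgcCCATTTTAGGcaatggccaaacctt
Svil CArG box, 3L:2472579-2472618: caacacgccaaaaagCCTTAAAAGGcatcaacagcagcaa

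Of the 10 actomyosin genes, 9 carried at least 1 IDR summit (90.0%), against 22.9% of all protein-coding genes (3190 of 13945). At promoters the count was 8 of 10 (80.0%), against 20.0% of all protein-coding genes (2785). The exception at both was RhoGEF2, and Rho1 had its summit outside its promoters. Longer genes carried summits more often. Among genes under 5 kb, summits stood at 5 of 5 members, against 14.9% of all such genes (1558 of 10461). Among genes of 5 to 50 kb they stood at 3 of 4 members, against 45.7% (1453 of 3177). The 1 member of 50 kb or more, Svil, also had summits, against 58.3% of such genes (179 of 307). In all, 32 of the 5703 IDR summits belonged to members, 15 of them to Svil. Because the members were chosen with earlier results of these data known, their shares do not describe an independent set.

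**Figure D1:**
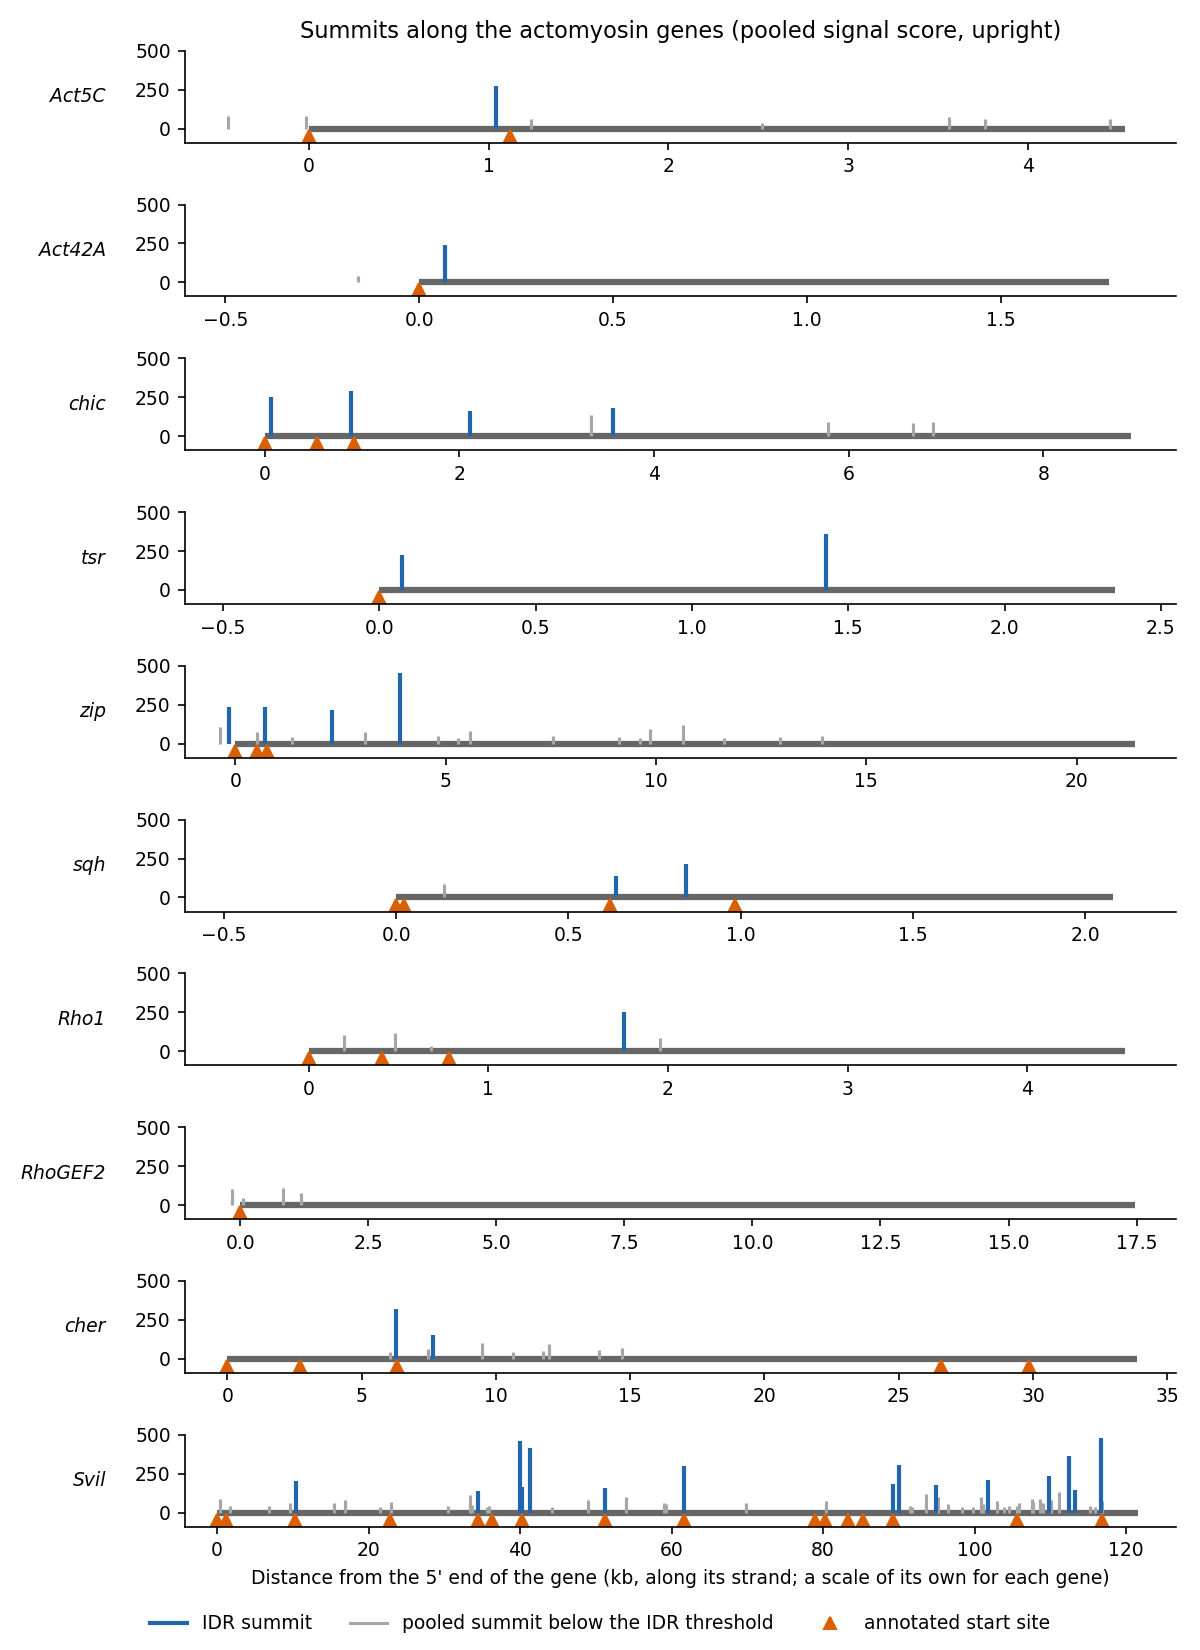
Each panel runs along 1 gene from its 5′ end (kb, with a scale of its own), and the height of a line is the authors' pooled signal score. Blue lines are IDR summits, grey lines are pooled summits below the IDR threshold, and triangles are annotated start sites; RhoGEF2 alone has no blue line, and the 15 of Svil are spread over its length.

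Act5C and Act42A encode the cytoplasmic actins, which build the cortex and stress fibres of nonmuscle cells. Each had 1 IDR summit, at a start site. In Act5C, which spans X:5900861-5905399 on the plus strand and has 2 start sites, the peak covered X:5901746-5901980 with a signal of 276.9 (rank 1463). Its summit lay 82 bp upstream of the second start site, inside the first intron of the longer transcripts. The signal there was 127.5 in replicate 2 and 156.7 in replicate 3. The first start site, used by 4 of the 5 annotated transcripts, had no IDR summit, and the strongest pooled summit near it, 14 bp upstream, had a signal of 80.99 (rank 11956 of 30000). The 2 starts of Act5C therefore differed in whether their summit passed the threshold. Its CArG box, printed above, lay 170 to 179 bp upstream of the second start and 88 to 97 bp upstream of the summit. Within 50 bp of the summit lay 2 matches to GAGAG, 1 of them across it.

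Act42A, at 2R:6013910-6015689 on the minus strand, has a single start site. Its peak, at 2R:6015408-6015837, had a signal of 237.4 (rank 2034), with its summit 66 bp downstream of the start in the 5′ UTR. The replicates gave 114.5 and 119.4, the most even pair among the 30 member summits matched in both. It had the only CArG box within 50 bp of a member summit, 104 to 113 bp downstream of the start.

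The other actins carried no summit. Act57B, Act79B, Act87E and Act88F, the actins of larval and adult muscle, and Arp53D, an actin-related gene expressed in testis, had 0 IDR summits and 0 pooled summits by the same rule. Over all protein-coding genes, 51.3% had a pooled summit (7148), and so did all 10 members. The cytoplasmic actin genes were thus on the list and the muscle actin genes were not, down to the last of 30000 pooled peaks. Of all protein-coding genes under 5 kb, the length class of these 5 genes, 14.9% had an IDR summit. For IDR summits, 0 of 5 is near that share. The pooled share was not split by length, so nothing about kinds of actin is read from these counts.

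Profilin, encoded by chic, had 4 IDR summits in 8904 bp (2L:5972115-5981018, minus strand). Its start sites number 3. The summit with the highest signal, 293.0 (rank 1271), lay 31 bp upstream of the third start in a peak at 2L:5980008-5980275, and the replicates gave 140.4 and 173.1. A second promoter summit, 66 bp downstream of the first start in the 5′ UTR, had a signal of 250.2, with 119.5 in replicate 2 and 135.3 in replicate 3. Both promoter summits were thus higher in replicate 3. The 2 others lay in the second intron, 1191 and 2661 bp downstream, with signals of 160.0 and 183.0. They went the other way between replicates, with 92.10 and 113.7 in replicate 2 and 74.42 and 73.00 in replicate 3. Within 50 bp of the stronger promoter summit lay 6 matches to GAGAG, overlapping ones included, the most of any member summit, and the run printed above shows most of that stretch.

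Cofilin, encoded by tsr (twinstar), had 2 summits in only 2353 bp (2R:24044453-24046805, minus strand), or 8.50 per 10 kb. The promoter summit, 71 bp downstream of the single start in the 5′ UTR, had a signal of 226.5 and was higher in replicate 2 (136.9) than in replicate 3 (95.87). The stronger summit was not at the promoter. It lay 1429 bp downstream in the first intron, at 2R:24045248-24045462, with a signal of 357.3 (rank 839), and went the other way, with 145.4 in replicate 2 and 220.3 in replicate 3. No pooled summit of tsr fell below the IDR threshold.

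Nonmuscle myosin II is made of a heavy chain, encoded by zip (zipper), an essential light chain (Mlc-c) and the regulatory light chain, encoded by sqh (spaghetti squash). In zip (2R:24990570-25011965, minus strand) 4 IDR summits lay within 3161 bp of a start site. The strongest was far from the promoters, 3161 bp downstream of the nearest start in the second intron, at 2R:25007858-25008226. Its signal of 452.2 (rank 492) was among the strongest 10% of the IDR list, and the replicates gave 210.4 and 238.1. This summit ranked 492 in replicate 2 and 561 in replicate 3, so its place was alike in both lists. Another summit in that intron, 1545 bp downstream of a start, had a signal of 219.4, with 148.1 in replicate 2 and 85.25 in replicate 3. At the start used by 7 of the 9 transcripts and at the third start stood 1 summit in common with a signal of 236.8. Replicate 3 had 110.3 there, while the nearest replicate 2 summit, of 130.7, lay 111 bp away and so was not matched. The remaining summit, of 232.9, lay 161 bp upstream of the first start of zip but 64 bp from that of uzip, a neighbouring gene for a cell adhesion protein, so it belongs to both promoters. Counted only for the gene with the nearest start, zip had 3.

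In sqh (X:6223061-6225140, minus strand) 2 summits fell in 2080 bp, 9.62 per 10 kb, the highest density of the members. The median over all protein-coding genes with a summit was 2.57 per 10 kb. The gene is short and its 2 peaks overlap (X:6224084-6224513 and X:6224287-6224716), so the density rests on 1 small region. The stronger, of 211.9 (rank 2538), lay 142 bp upstream of the fourth start, with 116.1 in replicate 2 and 97.78 in replicate 3. The weaker, of 139.9 (rank 5459), lay 18 bp downstream of the third start and was near the bottom of the IDR list. It had 98.31 in replicate 2 (rank 3021) but 45.62 in replicate 3 (rank 12075), so it rested mostly on replicate 2, and it was absent when the 5703 strongest summits of replicate 3 alone were used. The first and second starts, which together account for 3 of the 5 transcripts, had a pooled summit of 86.76 and none on the IDR list. Upstream of the third start, the printed run shows an AP-1 site (TGANTCA) directly beside GAGAG. The CArG box of sqh lay 61 to 70 bp upstream of the stronger summit.

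Of the signalling members Rho1 had 1 IDR summit and RhoGEF2 none. In Rho1 (2R:16102687-16107229, plus strand) a single peak at 2R:16104330-16104452 had a signal of 251.1 (rank 1781), with its summit 974 bp downstream of the third start in the first intron. Replicate 3 gave 161.3 and replicate 2 gave 93.92. All 3 start sites of Rho1 lacked an IDR summit, and the strongest pooled summit near them, 68 bp downstream of the second start, had a signal of 115.1 (rank 7445). With a promoter window of 1000 bp the intronic summit counted as a promoter summit.

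RhoGEF2 (2R:17027190-17044653, plus strand), the exchange factor that loads Rho1 with GTP, had no IDR summit and 4 pooled ones. The strongest, 840 bp downstream of its single start, had a signal of 108.9 (rank 8028), with no summit within 100 bp of it in either replicate. The next, 171 bp upstream of the start, had 103.2 (rank 8642), with 36.82 in replicate 2 and 60.75 in replicate 3. The weakest signal on the IDR list was 136.3, and summits of chic (133.1), Svil (129.7) and zip (122.2) also below the threshold came nearer to it than those of RhoGEF2. Among the 5703 strongest summits of replicate 3 alone 1 fell in RhoGEF2, and among those of replicate 2 alone none did.

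Filamin, a dimer that links actin filaments into networks, is encoded by cher (cheerio). The gene spans 3R:17091533-17125389 on the minus strand, has 5 start sites and carried 2 IDR summits. The stronger, of 319.5 (rank 1075), lay at 3R:17119025-17119174, 34 bp upstream of the third start and within a coding exon of longer transcripts. It had 174.9 in replicate 2 and 144.0 in replicate 3. The GAGAG matches in its printed run lie wholly or partly more than 50 bp from the summit, so they count only in the wider of the 2 motif windows described below. The second summit, 1356 bp downstream in an intron, had 149.6, with 56.75 in replicate 2 and 88.79 in replicate 3. The other 4 start sites of cher had no summit, not even in the pooled list.

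Svil encodes supervillin, a membrane-associated protein of the villin family that in mammals binds actin and myosin II. It is by far the longest member, 121572 bp (3L:2377655-2499226, plus strand), with 16 start sites and 31 transcripts. Its 15 IDR summits, 8 of them at promoters, gave a density of 1.23 per 10 kb, against 0.426 for all IDR summits over the chromosome arms. Of the other members with a summit, sqh, tsr, Act42A and chic were above 4, Act5C and Rho1 had 2.20, zip 1.87 and cher 0.591. Any short gene with a summit has a high density, as Act42A had 5.62 from 1 summit in 1780 bp. Including Svil itself, 12 protein-coding genes had as many summits or more. A further 43 pooled summits of Svil were below the IDR threshold. Summits stood at 7 of its 16 start sites. The first start site, at the 5′ end, had a pooled summit of 85.67 alone.

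The strongest summit of any member lay 245 bp upstream of the last start of Svil, at 3L:2494161-2494462, with a signal of 475.8 (rank 434). It also had the largest difference in score between replicates, with 321.7 in replicate 3 (rank 292) and 147.5 in replicate 2 (rank 1187). A second strong pair lay around the seventh start. A summit 316 bp upstream of it, at 3L:2417586-2417911, had 458.0 (rank 476), with 204.8 in replicate 2 and 251.3 in replicate 3. Another, 1010 bp downstream at 3L:2418862-2419089, had 411.2 (rank 627), with 152.6 and 265.1. Another summit in the same region, 110 bp upstream of that start, had 162.0 and no replicate 3 summit of its own within 100 bp. Its peak, at 3L:2417591-2417911, is nearly the same as that of the 458.0 summit. The nearest replicate 3 summit, 108 bp away, is the one of 251.3 given for that summit. The 2 are nevertheless counted separately. The summit at the fifth start, 2 bp from it, was the weakest of any member at 137.4 (rank 5628), with 98.61 in replicate 2 and 39.50 in replicate 3 (rank 14644). Also inside Svil, a summit of 364.9 lay 50 bp from the start of CG1146, a gene that overlaps Svil, and one of 146.7 lay 331 bp from it. Both lay over 3 kb from any Svil start, at 4368 and 3607 bp. Counted by the nearest start, Svil had 10 summits.

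**Figure D2:**
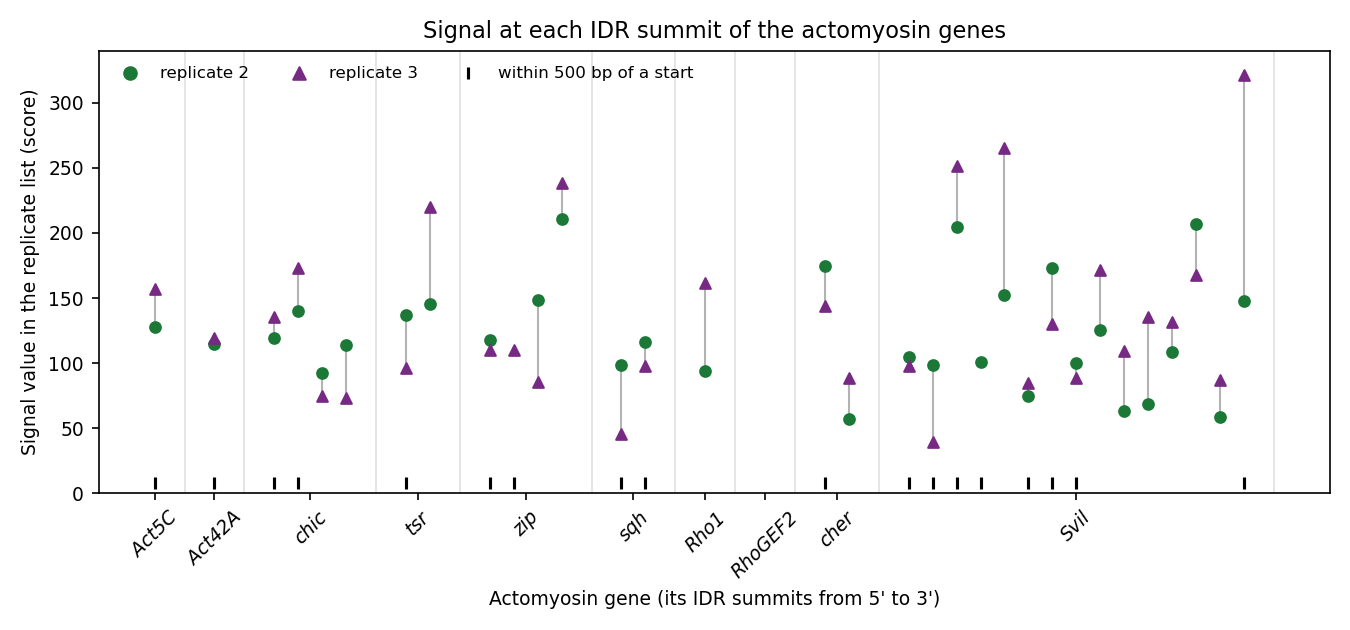
Each column is 1 IDR summit of a member, ordered from 5′ to 3′ within the gene, and the vertical axis is the authors' signal score in the list of replicate 2 (circles) and of replicate 3 (triangles). Ticks at the bottom mark promoter summits; the gap between replicates is smallest at Act42A (114.5 and 119.4) and widest at the last Svil promoter (147.5 and 321.7).

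By the strongest summit of each gene, the order was Svil (475.8), zip (452.2), tsr (357.3), cher (319.5), chic (293.0), Act5C (276.9), Rho1 (251.1), Act42A (237.4) and sqh (211.9). Between each pair of neighbours in this order the replicate values overlapped, so the order of neighbours is not beyond the spread. In replicate 2 the highest of these 9 summits was that of zip (210.4) and the lowest that of Rho1 (93.92). In replicate 3 the highest was that of Svil (321.7) and the lowest that of sqh (97.78).

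The 32 member summits had a median signal of 234.0 (137.4 to 475.8), against 200.1 for all 5703. Their median rank was 2089, against 2852. In the stronger part of the list lay 22 of 32 (68.8%), while the strongest 10% of the list held 3 (9.38%). Without Svil the median of the remaining 17 was 236.8. The member summits thus ran from near the bottom of the list to rank 434, with 10 below its median.

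Of the 32 summits, 24 lay in introns, 6 in 5′ UTRs, 1 in a coding exon and 1 outside its gene. Within 500 bp of a start of any gene lay 20 (62.5%), against 51.4% of all IDR summits. Of the member start sites, 19 of 39 had an IDR summit in reach (48.7%), against 19.4% of those of protein-coding genes (3728 of 19252), neighbouring starts sharing summits. First introns held 14 of the 24 intronic summits (58.3%), against 70.5% over all protein-coding genes (1962 of 2784). The 2 shares were not counted alike. For members only the member's own introns counted, while over all genes a summit took its lowest intron number in any gene, which can raise that share. Of the 24 intronic summits, 10 were also promoter summits of the member, 2 lay at a start of CG1146 and 12 lay away from the starts of any gene.

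Both replicates had a summit within 100 bp at 30 of the 32. Replicate 3 was higher at 17 of these 30 (56.7%), against 61.9% of the 5217 IDR summits matched in both. The median log2 ratio of replicate 3 over replicate 2 was 0.18 (SD 0.60 over 30 summits, -1.32 to 1.12), against 0.19 (SD 0.63) over all. Without Svil the median was -0.02. Member summits away from the start sites of any gene had a median log2 ratio of 0.53 (9 of 12 higher in replicate 3), and those within 500 bp of one -0.10 (8 of 18). Over all matched IDR summits the same split gave 0.26 away from starts (66.6% of 2548 higher in replicate 3) and 0.11 near them (57.4% of 2669). The spread of single summits was larger than either shift.

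**Figure D3:**
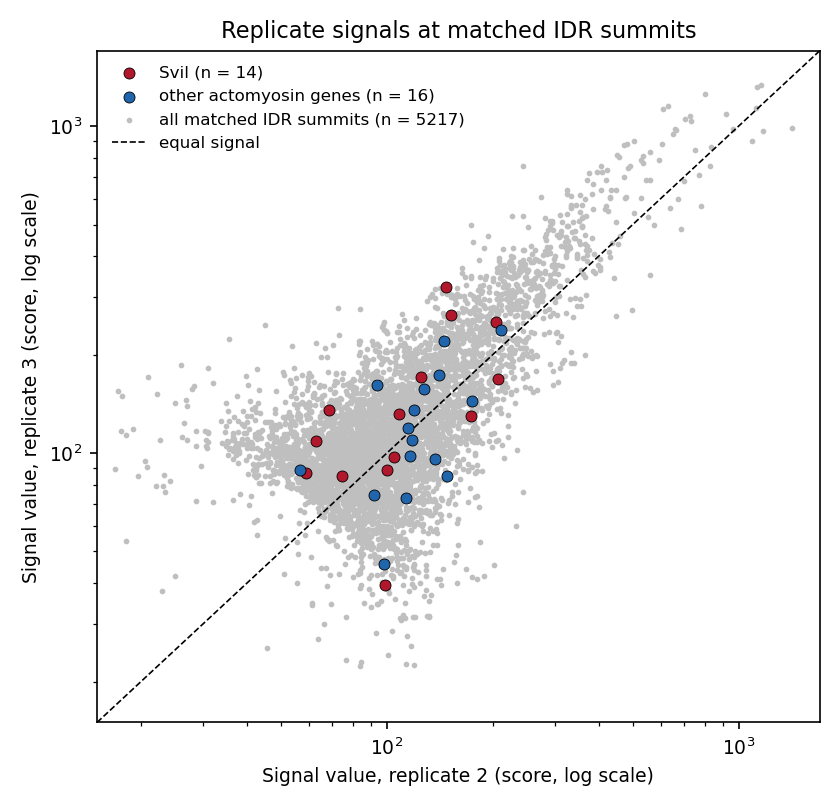
Signal score in replicate 3 (vertical) against replicate 2 (horizontal), both on log scales, at the IDR summits matched in both replicates. Svil summits (red, n = 14) and those of the other actomyosin genes (blue, n = 16) lie within the cloud of all 5217 matched summits (grey), with 17 of the 30 above the dashed line of equal signal.

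Short motifs, 11 in all, were searched on both strands within 50 bp of each summit and, as a wider window, within 100 bp. GAGAG stood within 50 bp of 5 of 32 member summits (15.6%), against 21.7% of all IDR windows and 12.7% of windows at protein-coding start sites. These 5 were the summits of Act5C, Rho1, the third start of chic, the weaker one of sqh and that at CG1146 in Svil. Within 100 bp the count was 16 of 32, against 37.5% of all IDR windows. The counts of GAGAG were near the background shares, and nothing about the members is read from them.

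The CArG box, bound by serum response factor (blistered in Drosophila), stood within 50 bp of 1 of 32 summits (3.12%), against 0.403% of all IDR windows and 0.312% of start windows. Within 100 bp it stood at 4 (12.5%), against 0.877% (50 of 5703). The 4 were Act5C, Act42A, sqh and an intronic summit of Svil, 5681 bp from a start, and those of Act5C, sqh and Svil are printed above. Start sites were not searched in the wider window, so that count has no share of start windows beside it. Actin genes are textbook targets of serum response factor in mammals, and the members were chosen as actomyosin genes. A match of letters is not a bound site, and any link of the factor to the binding mapped here was not tested.

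In the narrow window AP-1 (TGANTCA) stood at 2 summits, at sqh and at a zip intron (6.25%, against 2.17% of all IDR windows), and the STAT site (TTCNNNGAA) in 2, at chic and zip (6.25%, against 2.61%). TEAD (CATTCC), the site of Scalloped, stood in 1, at sqh (3.12%, against 3.73%). The TATA box (TATAAA) stood in 1, at Svil (3.12%, against 11.8% of all IDR windows and 15.5% of start windows). DRE (TATCGATA), the Zelda site (CAGGTAG), the heat shock element (GAANNTTC), the nuclear receptor half-site (AGGTCA) and the E-box (CACGTG) stood in none, against 0.491%, 0.386%, 2.67%, 1.79% and 1.03% of all IDR windows. With 32 windows, each window is 3.12%, so counts this small do not order the motifs. Median GC content was 44.6% in member windows and 43.6% in all.

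The wider pathway was read from 12 lists of 143 genes outside the members, of which 9 lists are described one by one. These lists were also chosen with earlier results of these data known, so their shares do not describe independent sets. Of the 143 genes, 72 had an IDR summit by the same rule (50.3%) and 59 had one at a promoter (41.3%), against the 22.9% and 20.0% of all protein-coding genes. By length the shares were 11 of 45 under 5 kb (24.4%), 57 of 90 from 5 to 50 kb (63.3%) and 4 of 8 of 50 kb or more, against 14.9%, 45.7% and 58.3% of all genes of those lengths. The median of the strongest signal per gene was 233.6 in the 72, against 224.9 over all genes with a summit.

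Around myosin II, 4 of 8 genes of the essential light chain, the light chain kinases and the phosphatase had a summit. Rok, a kinase of the light chain, had one of 598.1 (rank 250), with 309.1 in replicate 2 and 302.5 in replicate 3, but it lay 488 bp upstream of its start and also in the promoter of the ribosomal protein gene RpS19a. Drak, another kinase of the light chain, had 6 summits, the strongest 403.1, and flw, the catalytic subunit of myosin phosphatase, had 1 of 161.6 in a promoter shared with Psf3. That of flw was uneven between replicates, with 19.62 in replicate 2 and 84.97 in replicate 3. Of the unconventional myosins, 8 of 11 had a summit (72.7%), against the same shares of all genes. The strongest were at Myo61F (772.4, rank 126) and Mhcl (764.2, rank 134), both in introns, and at Myo10A (337.7).

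Of the genes listed upstream of RhoGEF2, 4 of 6 had a summit, against 22.9% of all protein-coding genes. At promoters the count was 2 of 6, against 20.0%. The receptor gene mthl1 (mist) had a summit of 293.6 in a 3′ UTR, 7005 bp from a start. The strongest of T48, a membrane anchor for RhoGEF2, was 224.9, in an intron 24605 bp from a start. Sb (Stubble), the transmembrane protease needed for leg eversion, had one of 188.2, 67 bp upstream of a start. RhoGEF2 itself had no IDR summit, though 1 fell in it among the 5703 strongest of replicate 3 alone.

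The counts that follow stand against 22.9% of all protein-coding genes and 45.7% of those of 5 to 50 kb, and single lists were not split by length. Nucleators and elongators had 12 of 23 (52.2%), led by the formins Fhos (610.8, rank 229), DAAM (318.3) and Frl (293.7). Capping, severing and turnover genes had 7 of 15, led by cdi, a kinase (397.5), cib, an actin monomer binding protein (356.4), and tmod, which caps pointed ends (320.5). Cross-linkers and membrane linkers had 17 of 22, the highest share of the lists, led by Septin2 (449.7), the spectraplakin shot (388.5, with 8 summits in all) and Moe, the moesin that ties actin to the membrane (374.8). The summits given for Septin2 and Frl each also lay within 500 bp of a start of another gene. At adherens junctions 2 of 6 had one, cno (canoe; 291.6) and shg, the E-cadherin gene (184.8).

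Of 14 genes for muscle filaments, among them the muscle myosin genes Mhc, Mlc1 and Mlc2 and the troponin genes, 0 had an IDR summit, against 22.9% of all protein-coding genes. In the pooled list 2 of the 14 did, Mlc2 (37.29, rank 26941) and TpnC73F (77.14, rank 12655), against 51.3%. The nonmuscle myosin heavy chain gene zip had 4 IDR summits and the muscle heavy chain gene Mhc, of similar length, none in either list. That pair and the muscle genes named here were picked out after their values were seen. Over all protein-coding genes, the IDR share ran from 14.9% under 5 kb to 58.3% at 50 kb or more. The pooled share was not split by length, so nothing about muscle and nonmuscle genes is read from these counts. Expression of these genes was not measured.

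**Figure D4:**
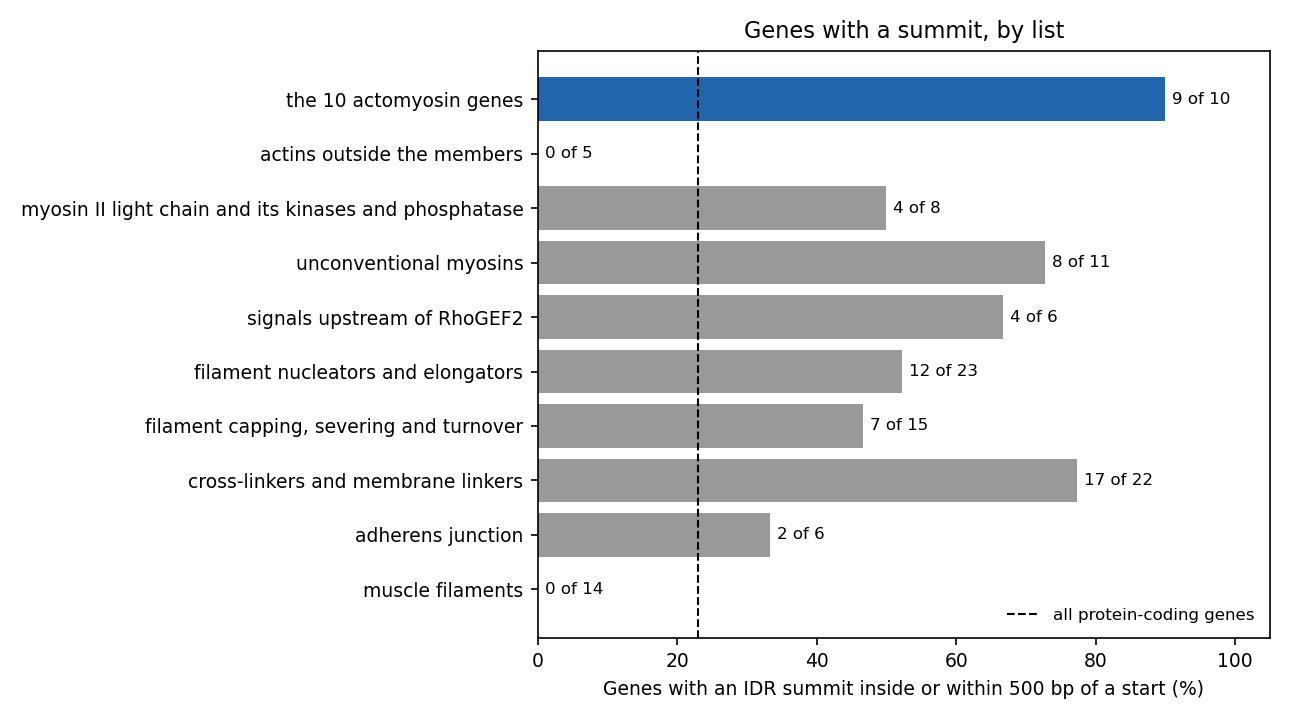
Bars give the share of genes (%) with an IDR summit inside the gene or within 500 bp of a start, for the 10 actomyosin genes (blue) and 9 pathway lists (grey), with the counts beside them. The dashed line is the 22.9% of all protein-coding genes; the other actins and the muscle filament genes are at 0.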

How the data were processed

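The authors deposited narrowPeak lists on build dm6, called with relaxed settings for each replicate and for both pooled against a control alignment, and an IDR list derived from these, per the notes deposited with the files. Neither labels nor notes name an aligner or a caller. The deposited signal value is a score of unstated scale. The deposited −log10 q-value was 4.18 in all IDR peaks and could not rank them. The IDR summits equalled the 5703 strongest pooled ones. Depth per library is unknown from the lists.

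Summits on arms X, 2L, 2R, 3L, 3R and 4 were assigned with Ensembl release 115 in Python 3.11.15 (numpy 2.4.6), a step checked on simulated summits. Left out were 18 Y or mitochondrial summits of replicate 2, and the dm3 lists. A summit counted for every gene it touched. Annotation was assigned as 5′ UTR, coding exon, 3′ UTR, then intron. Motif windows reached 50 bp to either side of a summit. Named are the members, genes with a start within 500 bp of a member summit, and up to 3 genes per pathway list with the strongest summit; muscle genes and other actins with none were named after their values were seen. Of the listed symbols, 3 matched as RefSeq synonyms. The members and lists were chosen with earlier results of these data known. Alternatives were other windows, lists, matching distances and assignment rules. Results of 3 pathway lists are not reported here.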

Additional observations from a re-analysis of the deposited data

How the results depend on the processing

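Counts of members with a summit, with a promoter summit and of their summits stayed within 1.5 times of the reported 9, 8 and 32 with 250 or 1000 bp as the promoter window, with the IDR summits above the median signal, with peak overlap for the first count and with assignment to the nearest start. With the strongest summits of 1 replicate alone, members with a summit were 9 to 10, with a promoter summit 8 in both, summits 29 to 30 and pathway genes 74 to 77; RhoGEF2 gained its summit in replicate 3. The strongest pooled summits are the IDR list itself and so gave no separate check. Without Svil, a choice made after seeing the data, 17 summits remained, fewer by over 1.5 times because 1 gene is left out. Pathway genes with a summit ran from 50 to 77 over the alternatives, also added after seeing the data, against 72. Replicate matching at 50 bp, at 250 bp or by overlap left the median log2 ratio at 0.18. Density was 1.46 summits per 10 kb of gene, and 0.462 promoter summits per start site. Reading motifs within 100 bp raised GAGAG to 16 summits and the CArG box to 4, since the window is wider. No paired analysis was possible because the 2 replicates form 1 group and no result comes from a test. With 2 libraries and depth unknown, summits below the threshold do not show absence of binding.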
